A study of Mus musculus with 8 samples.

Results

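A set of 193 autosomal CpG island regions of the mouse was described, out of 13444 regions measured on the array (1.44%). They were chosen by the measured values themselves: each member ranked in the top 10% of regions on all 4 liver and spleen arrays and outside the top 10% on the array of wild-type embryonic stem (ES) cells. Of the 1128 regions in the top 10% on all 4 tissue arrays, 935 were also in the top 10% on wild-type ES cells and these 193 were not. Of the members, 20 carry the name of an imprinted gene, for 16 genes in all, and the other 173 do not. They lay in the top 10% far more often on aid-/- and mbd4-/- ES cells than on ES cells with a Gadd45a knock down. By their medians, imprinted members ranked lower than other members on wild-type ES cells and higher on the aid-/- and mbd4-/- ES arrays.

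Methylated DNA was enriched with an antibody against 5-methylcytidine (methyl-DNA immunoprecipitation, mDIP), and bound and input DNA of the same sample were hybridised to 1 CpG island array. The groups were ES cells that were wild type, aid-/-, mbd4-/- or had a Gadd45a knock down, and liver and spleen of C57BL6/J mice aged 6 months that were aid-/- or mbd4-/-. The labels give no strain for the ES cells and do not say how the Gadd45a knock down was made. The DNA of aid-/- and of mbd4-/- tissues came from different sources, and tissue of wild-type mice was not analysed here, so tissue and genotype could be compared with wild-type ES cells only together. Each of the 8 groups held 1 array, so no test between groups was possible, and every difference below is one between 2 arrays. Each region was summarised by its mean log2 ratio of bound over input over its probes with the median of the array's autosomal probes set to 0, and errors are the SD over those probes. A percentile rank places that mean among the 13444 regions of the same array, with 100 the highest. A rank also carries the CpG content and hybridisation of the probes, so it was compared for the same region across arrays.

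CpG islands are stretches rich in CpG, often at promoters, that mostly stay free of methylation in normal cells. Imprinted genes are an exception: their control regions are methylated on the copy from 1 parent and free on the other, and the mark laid down in egg or sperm is normally kept in every body tissue and in ES cells. AID is a cytidine deaminase, Mbd4 a DNA repair enzyme that binds methylated CpG and removes thymine from mismatches, and Gadd45a a DNA damage response gene. All of them have been discussed as parts of a route that removes methylation from DNA.

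To show what was measured, the probe in the middle of 9 members is printed as the array holds it, 5′ to 3′, with each CpG in capitals, since CpG is where methylation is found. The first 6 are imprinted regions with large differences between wild-type and aid-/- or mbd4-/- ES cells, and the last 3 are other members at different ends of the range. Positions are in mouse build mm9, per the file headers.
Zrsr1, chr11:22872537-22872581: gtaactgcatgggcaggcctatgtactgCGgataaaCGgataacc
Peg3, chr7:6682819-6682863: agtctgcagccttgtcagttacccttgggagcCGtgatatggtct
Peg10, chr6:4697854-4697900: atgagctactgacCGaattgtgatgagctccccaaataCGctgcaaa
Mcts2, chr2:152512670-152512714: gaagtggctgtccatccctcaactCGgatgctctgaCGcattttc
Airn promoter in Igf2r, chr17:12934729-12934773: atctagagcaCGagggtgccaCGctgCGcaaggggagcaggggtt
Grb10, chr11:11925830-11925874: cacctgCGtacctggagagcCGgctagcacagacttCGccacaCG
Atp2b2, chr6:113698666-113698710: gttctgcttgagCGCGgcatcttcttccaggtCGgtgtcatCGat
Esrrb, chr12:87811236-87811280: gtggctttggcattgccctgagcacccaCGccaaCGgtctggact
D630037F22Rik, chr10:55835338-55835382: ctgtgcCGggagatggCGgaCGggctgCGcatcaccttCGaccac
The Zrsr1 probe read −1.02 on wild-type ES cells and −0.92 on the Gadd45a knock down, against 3.93 on aid-/- and 4.52 on mbd4-/- ES cells. The D630037F22Rik probe went the other way among the ES arrays, at 0.68 on wild type, −3.19 on aid-/- and −1.78 on mbd4-/-.

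By the rule, members ranked above 90 on every tissue array, and the values that chose them are given here as a description. On wild-type ES cells the top 10% began at a log2 value of 1.00. The members closest below that limit were Dennd1a (0.99), Kcnh2 (0.99) and Hsf5 (0.98), and the closest regions above it were Kctd21 (1.00), Sall3 (1.00) and 2700081O15Rik (1.01). On the tissue side the limits lay between 1.03 on aid-/- liver and 1.58 on mbd4-/- liver. AI894139, Bmp8b (both 1.58 on mbd4-/- liver) and Shroom1 (1.18 on aid-/- spleen) were just inside. 1200009I06Rik (1.44 on mbd4-/- spleen), Ltbp3 (1.56 on mbd4-/- liver) and 1500001A10Rik (1.54 on mbd4-/- liver) were just outside. A further 54 regions missed on 1 of the 4 tissue arrays. Many other members were thus close to the limit on wild-type ES cells: 102 of 173 ranked at 80 or more there, with a median of 82.6, and 11 ranked below 50. Of the 20 imprinted members, 3 ranked at 80 or more and 10 below 50, with a median of 51.2.

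The arrays also differed in signal and in their dependence on base composition. The bound signal was well above background on 65.4% of autosomal probes on the aid-/- ES array and on 81.1% to 92.4% on the other 7. On the aid-/- ES and aid-/- liver arrays, probes with under 50% G and C lay above probes with 70% or more. Their median values were 0.46 and 0.12, against 0.04 and −0.02. These classes of probes were about level on aid-/- spleen, and the order was reversed on the other 5 arrays. The aid-/- ES and aid-/- liver arrays lay on the same slide, and aid-/- spleen on another. Slide and genotype thus cannot be told apart for this trait. The arrays of wild-type ES cells and of the 3 aid-/- samples were scanned on 1 day, the mbd4-/- tissues on another, and the mbd4-/- and Gadd45a knock down ES arrays on a day each, so scan day and genotype cannot be told apart for those. The wild-type and aid-/- ES arrays, scanned on the same day, lay on different slides. Their part in the results was not tested.

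On the 3 ES arrays that the rule did not use, 97 of 193 members were in the top 10% on aid-/- ES cells, 84 on mbd4-/- ES cells and 10 on the Gadd45a knock down. Among all 12100 regions outside the top 10% on wild-type ES cells, the shares were 1.50%, 1.64% and 5.12%. Of the imprinted members, 14 of 20 (70%) were in the top 10% on aid-/- ES cells and 14 (70%) on mbd4-/- ES cells, with 12 on both. Of the other members, 83 of 173 (48.0%) were in it on aid-/- and 70 (40.5%) on mbd4-/-. The Gadd45a knock down held 1 imprinted member (5.0%) and 9 other members (5.2%) in its top 10%, close to the 5.12% of all such regions. None of the 20 imprinted members was in the top 10% on all 3 arrays, 5 other members were, and 84 of the 193 (43.5%) were in it on none. Such combinations were not counted over all 12100 regions, so these counts describe the members only. A region in the top 10% on both knockout ES arrays is also in it on aid-/-. That share of the 12100 can therefore be at most 1.50%.

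**Figure D1:**
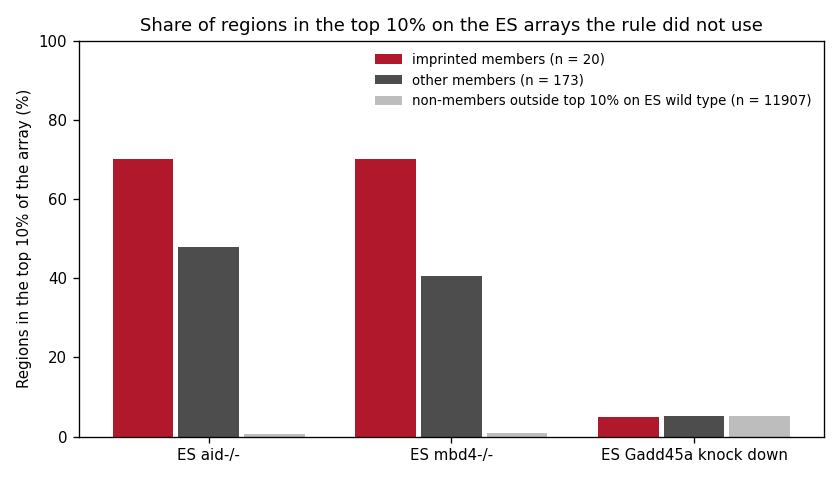
Bars give the percentage of regions in the top 10% of each of the 3 ES arrays that the rule did not use, for 20 imprinted members, 173 other members and the 11907 regions that are neither members nor in the top 10% on wild-type ES cells; each bar is 1 array, so there is no error bar. Imprinted members stand at 70% on aid-/- and mbd4-/- ES cells and at 5.0% on the Gadd45a knock down.

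Since members were chosen partly for their ranks on wild-type ES cells, they were set beside other regions in the same range of wild-type rank. The match was on wild-type rank only. Every member was in the top 10% on all 4 tissue arrays by the rule. Of all 11907 non-members outside the wild-type top 10%, 1.2% to 1.3% were in it on each tissue array. The shares below therefore also carry the choice by tissue rank. Between ranks 80 and 90, 62 of 102 other members (60.8%) were in the top 10% on aid-/- and 58 (56.9%) on mbd4-/- ES cells, against 66 (5.3%) and 82 (6.6%) of 1240 regions that were not members. Below rank 50, 8 of 10 imprinted members were in the top 10% on aid-/- and 9 on mbd4-/- ES cells. Of the 11 other members in that range 2 and 0 were, and of the 6701 remaining regions 3 and 8. The Gadd45a knock down did not follow: between ranks 80 and 90 it held 6 of 102 other members (5.9%) in its top 10% but 256 of 1240 regions that were not members (20.6%).

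The same rule with another ES array in the place of wild type gave fewer regions for the knockouts. It gave 106 regions outside the top 10% on aid-/- and 120 on mbd4-/- ES cells, with 6 imprinted each, and 9.4% and 9.2% of these were in the top 10% on wild-type ES cells. For the Gadd45a knock down it gave 512 regions, 20 of them imprinted, and 64.3% of the 512 were in the top 10% on wild-type ES cells.

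**Figure D2:**
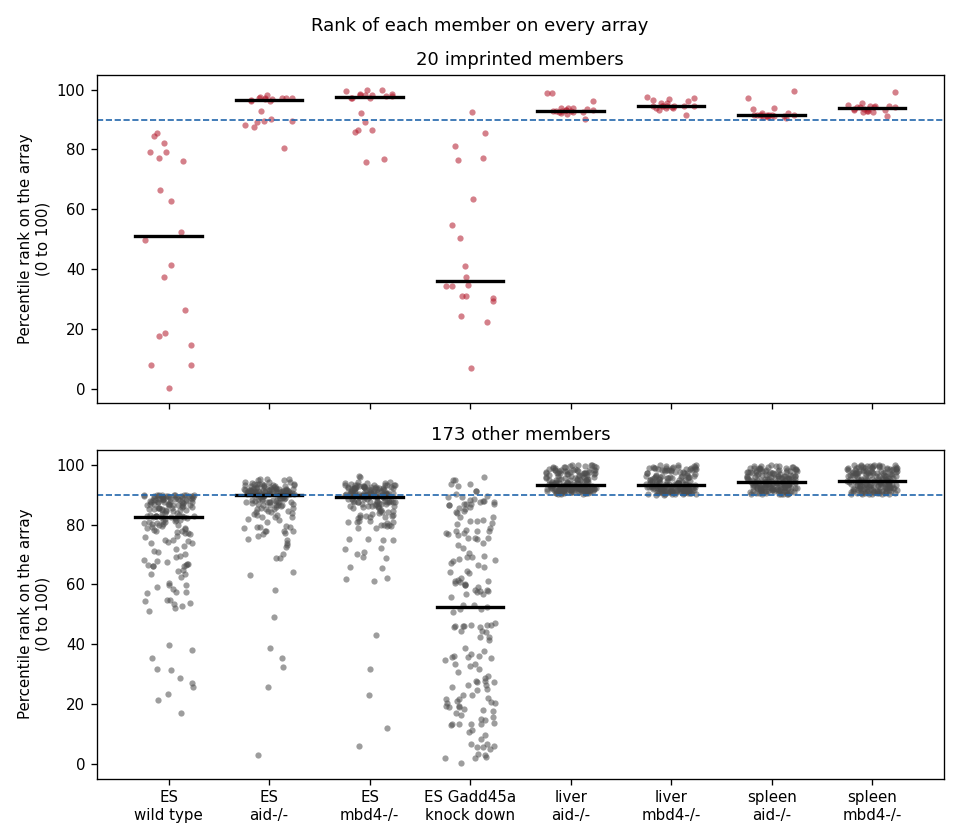
Each point is the percentile rank (0 to 100, of 13444 regions) of 1 member on 1 array, black bars are medians, and the dashed line marks the top 10%; ranks on wild-type ES cells and on liver and spleen chose the members. Imprinted members (upper panel) have median ranks of 51.2 on wild type, 96.4 on aid-/-, 97.7 on mbd4-/- and 36.1 on the Gadd45a knock down, while the 173 other members (lower panel) have 82.6, 89.8, 89.2 and 52.4.

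A difference of 1 or more on the log2 scale above wild-type ES cells, with at least 75% of the probes higher, was counted as a description, since a low wild-type value was part of the choice. It was found for 17 of 20 imprinted members on aid-/-, 16 on mbd4-/- and 1 on the Gadd45a knock down. Of the other members, 98 of 173 were that much higher on aid-/-, 103 on mbd4-/- and 3 on the knock down. Over all 13444 regions the shares were 8.81%, 8.67% and 6.58%. The median difference from wild type was 3.92 and 4.77 for imprinted members on aid-/- and mbd4-/-, 1.11 and 1.18 for other members, and 0.09 and 0.07 over all regions. On the knock down it was 0.15 for imprinted and −0.43 for other members, beside 0.12 over all regions. The arrays differed in scale: the top 10% began at 1.00 on wild type, 1.69 on aid-/-, 1.85 on mbd4-/- and 1.16 on the knock down. A region at that limit thus reads higher on the knockout ES arrays at equal rank. The part of this in the differences was not tested. The median differences over all regions cannot show it, since every array was centred on its own median.

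Most of the imprinted members at a gametic control region formed a tight group on the knockout ES arrays. Of the 20, 12 lay between 3.78 and 4.42 on aid-/- ES cells, and the next lower was at 2.63. On mbd4-/- ES cells 13 lay between 4.14 and 5.36, and the next lower was at 2.44. A limit of 3 was set after these values were seen. It was passed on both arrays by 11 imprinted members, by 6 of the 173 other members and by 756 of all 13444 regions. No member passed it on the knock down, where 1.87% of all regions did. On wild type no member could, since the rule kept members outside the top 10%, which began at 1.00. On the tissue arrays 17 of 20 imprinted members ranked below 95 on aid-/- liver, 13 on mbd4-/- liver and 18 on each spleen array. Of the 173 other members, 112 did so on aid-/- liver, 116 on mbd4-/- liver, 103 on aid-/- spleen and 92 on mbd4-/- spleen. Of the 20 imprinted members, 11 ranked higher on aid-/- ES cells than in both aid-/- tissues, and 12 ranked higher on mbd4-/- ES cells than in both mbd4-/- tissues. For the other members these counts were 4 and 5 of 173. Among the 935 regions that were in the top 10% on the 4 tissue arrays and on wild-type ES cells they were 414 and 463.

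**Figure D3:**
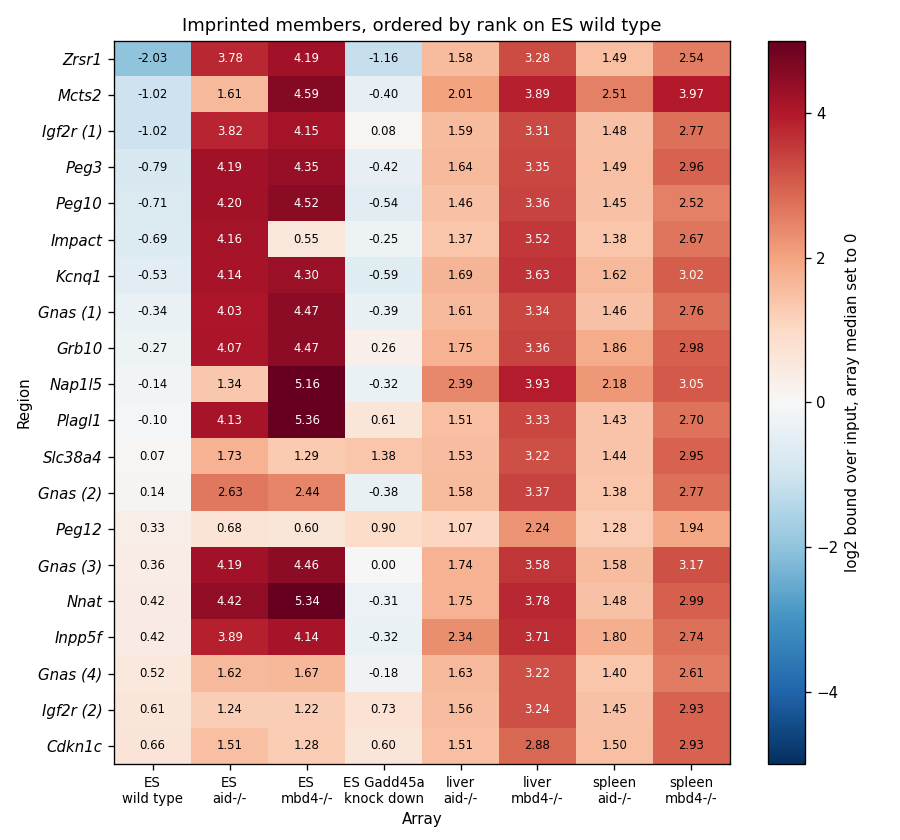
Colours and printed numbers give the mean log2 ratio of bound over input, array median set to 0, of the 20 imprinted members (rows, ordered by rank on wild-type ES cells, with regions of the same gene name numbered in that order) on the 8 arrays (columns). Igf2r (1) is the Airn promoter region; most rows are near or below 0 on wild type and on the Gadd45a knock down and above 3 on aid-/- and mbd4-/- ES cells.

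Zrsr1, Mcts2, Nap1l5 and Inpp5f each have an imprinted transcript that arose by retrotransposition and sits inside a host gene, and their regions ranked from 0.3 to 79.1 on wild-type ES cells. Zrsr1 (chr11:22872000-22873052, 9 probes), which encodes a splicing factor and is expressed from the paternal copy, had the lowest rank of all members. Its log2 values were −2.03 ± 1.39 on wild type, 3.78 ± 0.39 on aid-/-, 4.19 ± 0.34 on mbd4-/- and −1.16 ± 1.38 on the Gadd45a knock down (SD over 9 probes), and 1.58, 3.28, 1.49 and 2.54 on aid-/- liver, mbd4-/- liver, aid-/- spleen and mbd4-/- spleen. It was low on wild type and the knock down and high on the other 6 arrays, with the bound signal well above background at 5 of its 9 probes on wild type. Mcts2 (chr2:152512463-152513054, 5 probes) encodes a relative of a translation re-initiation factor. It read −1.02 ± 0.41 on wild type, 1.61 ± 0.38 on aid-/-, 4.59 ± 0.32 on mbd4-/- and −0.40 ± 1.85 on the knock down, which places the aid-/- array between wild type and mbd4-/-. Nap1l5 (chr6:58856617-58857246, 5 probes), related to a nucleosome assembly protein, had the same order, with −0.14 ± 0.51, 1.34 ± 0.36, 5.16 ± 0.25 and −0.32 ± 1.30. On aid-/- ES cells Mcts2 and Nap1l5 ranked at 89.6 and 88.3, just outside the top 10%, and on mbd4-/- at 98.7 and 99.7. Both ranked between 94.8 and 99.5 on the 4 tissue arrays. Inpp5f (chr7:135831552-135832148, 6 probes), a phosphoinositide phosphatase gene with an imprinted retrotransposed transcript, read 0.42 ± 0.40, 3.89 ± 0.23, 4.14 ± 0.45 and −0.32 ± 1.82 on the 4 ES arrays.

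The promoters of the silencing RNAs Airn and Kcnq1ot1 are found among the members under the names of the genes that they overlap. The region named Igf2r at chr17:12934260-12935460 (10 probes) is named Airn in another array file of the series. Airn is a non-coding RNA made from the paternal copy that silences Igf2r. That region read −1.02 ± 0.96 on wild type, 3.82 ± 0.50 on aid-/-, 4.15 ± 0.37 on mbd4-/- and 0.08 ± 1.79 on the Gadd45a knock down. The region named Kcnq1 at chr7:150481208-150482535 (8 probes) is Kcnq1ot1 in that file, the RNA that silences the cluster around Cdkn1c. It read −0.53 ± 0.59, 4.14 ± 0.18, 4.30 ± 0.36 and −0.59 ± 0.61, with all 8 probes above background on wild type. On wild type and the knock down the ranks were 7.9 and 54.6 for the Airn region and 26.3 and 22.4 for Kcnq1ot1, so that Airn was low on wild type and in the middle of the range on the knock down. Both ranked between 96.3 and 97.9 on the knockout ES arrays.

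Peg3, Peg10, Plagl1, Nnat and Grb10, protein genes with a gametic control region, were higher on both knockout ES arrays than on wild type. Peg3 (chr7:6682111-6683212, 9 probes), a zinc finger gene, read −0.79 ± 1.21 on wild type, 4.19 ± 0.27 on aid-/-, 4.35 ± 0.27 on mbd4-/- and −0.42 ± 1.52 on the knock down. Peg10 (chr6:4697308-4698444, 7 probes), a gene derived from a retrotransposon and needed for the placenta, read −0.71 ± 1.19, 4.20 ± 0.62, 4.52 ± 0.33 and −0.54 ± 0.70. Plagl1 (chr10:12810275-12811158, 7 probes), a growth-restraining zinc finger transcription factor, had the highest mbd4-/- value of the imprinted members, with −0.10 ± 0.94, 4.13 ± 0.71, 5.36 ± 0.80 and 0.61 ± 2.27. In each of these, the difference between the knockout ES arrays and wild type was larger than the SD over probes on either array. That SD is a spread of probes within 1 array and no error of the difference. A low wild-type value was also part of the choice. Nnat (chr2:157385700-157386395, 7 probes), the gene of the membrane protein neuronatin, began from a higher wild-type value, 0.42 ± 0.36, and read 4.42 ± 0.39 on aid-/-, 5.34 ± 0.36 on mbd4-/- and −0.31 ± 1.42 on the knock down. Grb10 (chr11:11925467-11926345, 10 probes), an adaptor that restrains insulin and growth signalling, read −0.27 ± 0.77, 4.07 ± 0.78, 4.47 ± 0.47 and 0.26 ± 1.13.

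A few imprinted members differed between the 2 knockouts or did not reach the top 10% on either. Impact (chr18:13131830-13132313, 3 probes), a regulator of translation under amino acid shortage, read 4.16 ± 0.17 on aid-/- but 0.55 ± 0.45 on mbd4-/- ES cells, beside −0.69 ± 0.90 on wild type and −0.25 ± 0.62 on the knock down. Its rank of 75.8 on mbd4-/- ES cells was the lowest of the 20 there, while it ranked at 95.4 and 93.0 on mbd4-/- liver and spleen. Slc38a4 (chr15:96884810-96885274, 3 probes), an amino acid transporter, was the imprinted member in the top 10% on the Gadd45a knock down, where it read 1.38 ± 0.14. It read 0.07 ± 0.43 on wild type, 1.73 ± 0.15 on aid-/- and 1.29 ± 0.29 on mbd4-/-, with ranks of 62.8, 90.1 and 86.6. With 3 probes each, Impact and Slc38a4 rest on few measurements.

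Gnas, the gene of the stimulatory G protein alpha subunit, has several imprinted promoters, and 4 regions named for it were members. The regions at chr2:174122729-174123051 (3 probes) and chr2:174124027-174126550 (21 probes) read −0.34 ± 0.57 and 0.36 ± 0.76 on wild type, 4.03 ± 0.21 and 4.19 ± 0.65 on aid-/-, 4.47 ± 0.43 and 4.46 ± 0.43 on mbd4-/-, and −0.39 ± 1.58 and 0.00 ± 1.71 on the knock down. The region at chr2:174152721-174155044 (14 probes) was intermediate, at 0.14 ± 0.73, 2.63 ± 0.64, 2.44 ± 0.69 and −0.38 ± 1.78. The region at chr2:174110137-174111779 (10 probes) stayed outside the top 10% on all ES arrays, at 0.52 ± 0.47, 1.62 ± 0.76, 1.67 ± 0.52 and −0.18 ± 1.59. The 4 regions thus lay at 3 different levels on the knockout ES arrays, while on aid-/- liver they were all between 1.58 and 1.74.

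The other 3 imprinted members outside the top 10% on every ES array were Igf2r, Cdkn1c and Peg12. The promoter of Igf2r, the receptor that clears the growth factor IGF2, and that of Cdkn1c, a cell cycle inhibitor, are known to gain their imprinted methylation after fertilisation, under the control of the Airn and Kcnq1ot1 regions. The second Igf2r region (chr17:12961815-12962950, 8 probes) read 0.61 ± 0.45 on wild type, 1.24 ± 0.60 on aid-/-, 1.22 ± 0.44 on mbd4-/- and 0.73 ± 1.35 on the knock down. Cdkn1c (chr7:150644899-150647431, 15 probes) read 0.66 ± 0.67, 1.51 ± 0.69, 1.28 ± 0.88 and 0.60 ± 1.66, and Peg12 (chr7:69608562-69609381, 6 probes), a Wnt pathway gene, 0.33 ± 1.15, 0.68 ± 0.69, 0.60 ± 1.13 and 0.90 ± 1.1. Differences from wild type on aid-/- and mbd4-/- were 0.63 and 0.61 for Igf2r, 0.85 and 0.62 for Cdkn1c, and 0.34 and 0.26 for Peg12. The SD over probes also holds differences between probes that all arrays share, so it is no error of these differences. Of the other imprinted-list regions on the array, Mest, Cdh15 and Dlk1 were in the top 10% on all 4 tissue arrays and also on wild-type ES cells, at ranks of 91.6, 99.7 and 95.7, and so were no members. Mest was just inside that limit at 1.24 on wild type, and read 4.52 on aid-/-, 4.82 on mbd4-/- and 0.56 on the knock down. In the same order Cdh15 read 4.27, 4.87, 4.64 and 4.10, and Dlk1 2.56, 4.19, 3.83 and 2.17. Of the 65 imprinted-list regions, 39 were outside the top 10% on every tissue array.

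**Figure D4:**
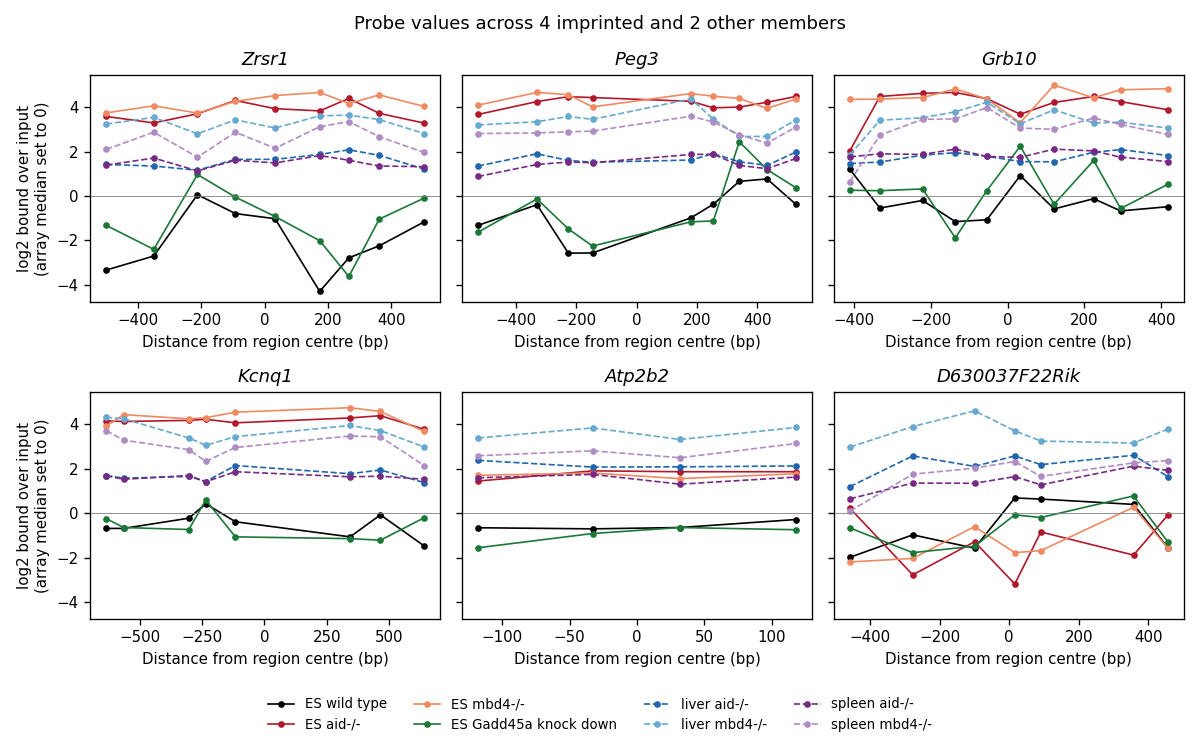
Lines join the log2 ratio of bound over input (vertical axis, array median set to 0) of each probe against its distance from the region's centre in bp, for 8 arrays (solid, ES cells; dashed, tissues). In Zrsr1, Peg3, Grb10 and Kcnq1 (the Kcnq1ot1 promoter region) the aid-/- and mbd4-/- ES lines lie above wild type and the Gadd45a knock down at nearly every probe, in Atp2b2 they lie above wild type and close to the aid-/- tissue lines, and in D630037F22Rik all tissue lines lie above the wild-type line at every probe.

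At the level of single probes, the knockout ES arrays were above wild type across most of each imprinted region, except Peg12 on aid-/-. Peg12 probes at 0.26, 1.06 and 1.55 on wild type read 0.22, 0.99 and 1.37 on aid-/-. The remaining Peg12 probes read higher on aid-/-. Of the 166 probes in the 20 imprinted members, 160 (96.4%) were higher on aid-/- than on wild-type ES cells, 162 (97.6%) on mbd4-/- and 87 (52.4%) on the Gadd45a knock down. Of the 947 probes of other members the shares were 88.9%, 91.1% and 35.1%, and of all 83154 probes in regions 53.1%, 56.8% and 52.8%. A low wild-type value was part of the choice of members, so these shares are a description.

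The Gadd45a knock down array differed from the others in scatter. The median SD over the probes of a member was 1.21 there, against 0.42 on wild type, 0.43 on aid-/- and 0.39 on mbd4-/- ES cells. The gap was smaller among non-members outside the wild-type top 10%. Their median SD was 1.40 on the knock down, 0.83 on wild type, 1.04 on aid-/- and 1.04 on mbd4-/-. Probes of the same island thus differed widely from each other on that array. Ranks of members on that array covered 0.2 to 95.8, and its part in their low ranks was not tested. The 10 members in its top 10% were Slc38a4, App, Sema5b, Myh3, Tbkbp1, Il17d, Mtap7d1, Rgma, Slc8a2 and an unnamed region on chromosome 12, of which those after Myh3 were named after their values were seen. App is the gene of the amyloid precursor protein. Its 5 probes (chr16:85080178-85080569) read 0.28 ± 0.23 on wild type, 2.98 ± 0.17 on aid-/-, 2.33 ± 0.09 on mbd4-/- and 1.71 ± 0.54 on the knock down. Myh3 (chr11:66907962-66908227, 3 probes), an embryonic muscle myosin gene, was also higher on all 3, at 2.91 ± 0.14, 3.19 ± 0.88 and 1.44 ± 0.58, but it began just under the limit at 0.97 ± 0.17.

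**Figure D5:**
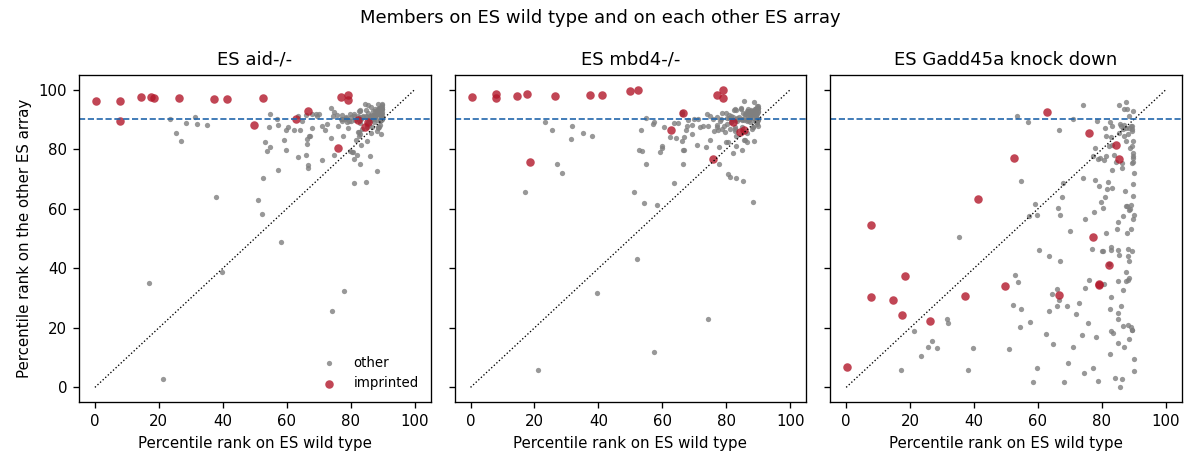
Percentile ranks of the 193 members on wild-type ES cells (horizontal) and on each other ES array (vertical), with imprinted members in red, the dotted line for equal ranks and the dashed line for the top 10%. All 20 imprinted members lie above the dotted line on aid-/- and on mbd4-/- ES cells and 10 of 20 on the Gadd45a knock down; of the 173 other members 149, 146 and 28 do.

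Among other members with the lowest wild-type ranks, most were intermediate on the knockout ES arrays and low on the knock down. Atp2b2 (chr6:113698581-113698861, 4 probes), a plasma membrane calcium pump, read −0.58 ± 0.19 on wild type, 1.76 ± 0.22 on aid-/-, 1.71 ± 0.11 on mbd4-/- and −0.97 ± 0.41 on the knock down. Zfp467 (chr6:48387919-48389354, 13 probes), a zinc finger gene, read −0.43 ± 0.79, 1.85 ± 0.50, 1.00 ± 0.42 and −0.58 ± 1.00. Both were in the top 10% on aid-/- and not on mbd4-/-, and they were the 2 of 11 other members below rank 50 to reach it on either. Zfp467 ranked from 96.8 to 99.8 on the tissue arrays, so its level on aid-/- ES cells (rank 90.7) stayed below that of the tissues. Gpr124 (now Adgra2, chr8:28231793-28232240, 5 probes), an adhesion receptor of blood vessels, read −0.54 ± 0.60, 1.01 ± 0.42, 1.26 ± 0.43 and −0.85 ± 0.90 and ranked from 97.3 to 99.2 in the tissues. Tnfrsf1a (chr6:125311695-125312071, 5 probes), a receptor for tumour necrosis factor, read −0.37 ± 0.69, 1.34 ± 0.33, 1.18 ± 0.75 and 0.01 ± 1.71. Cldn4 (chr5:135421920-135422180, 3 probes), a tight junction protein, was higher on aid-/- than on mbd4-/- at 1.45 ± 0.10 against 0.41 ± 0.42, from −0.49 ± 0.82 on wild type.

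Shroom1, Pcdha12, Ssbp4 and Ehbp1l1 complete the low group by gene name. Shroom1 (chr11:53279898-53280504), an actin-binding protein, ranked at 27.0 on wild type, 82.7 on aid-/-, 75 on mbd4-/- and 15.5 on the knock down, and another Shroom1 region, which starts 3181 bp lower on the chromosome, ranked at 89.3 on wild type. Pcdha12, a clustered protocadherin of neurons on chromosome 18, ranked at 31.8, 88.4, 87.7 and 21.7. Ssbp4, a single-stranded DNA binding protein, ranked at 38.0, 64.0, 84.6 and 6.0, and Ehbp1l1 at 17.0, 35.2, 65.6 and 5.7. The last pair were thus nearer to the tissues on mbd4-/- than on aid-/- ES cells.

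The lowest median ranks on the 3 other ES arrays among the named members that are not imprinted belonged to D630037F22Rik, 2810030E01Rik, Sh2d3c, Nfix, Ehbp1l1 and Stx1a. Of these, D630037F22Rik and Nfix ranked below 50 on all 4 ES arrays, and the other 4 ranked above 50 on at least 1. D630037F22Rik (current symbol Tbc1d32, named Msl3l2 in another array file; chr10:55834862-55835826, 7 probes) read −0.63 ± 1.16 on wild type, −1.41 ± 1.29 on aid-/-, −1.38 ± 0.89 on mbd4-/- and −0.68 ± 0.91 on the knock down, against 2.12, 3.62, 1.46 and 1.78 on aid-/- liver, mbd4-/- liver, aid-/- spleen and mbd4-/- spleen. All 4 tissue arrays were above all 4 ES arrays by more than 2 on this scale. Nfix (chr8:87308048-87308979, 9 probes), a nuclear factor I transcription factor, read −0.30 ± 0.75, −0.33 ± 0.63, −0.54 ± 1.28 and −0.86 ± 1.23 on the ES arrays and 1.55 to 2.48 in the tissues. Stx1a, a syntaxin of neurotransmitter release, ranked at 52.2, 58.1, 43.1 and 27.7, and Sh2d3c, a signalling adaptor, at 74.2, 25.7, 23.1 and 70.4. The region named 2810030E01Rik (now Skida1) ranked at 57.4, 73.1, 12.0 and 21.9.

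At the other end, Foxr1, Dst, Bcl11a, Magi1, App and Myh3 had the highest median ranks on the 3 other ES arrays among the named members that are not imprinted. Foxr1 (chr9:44248712-44249146, 4 probes), a forkhead gene, read 0.85 ± 0.30 on wild type, 3.54 ± 0.70 on aid-/-, 3.69 ± 0.54 on mbd4-/- and −0.76 ± 0.81 on the knock down. Dst, a cytoskeletal linker, read 0.66 ± 0.31, 3.40 ± 0.36, 3.74 ± 0.24 and 0.90 ± 1.06, and Bcl11a, a zinc finger repressor of blood and brain, 0.96 ± 0.26, 3.48 ± 0.20, 3.19 ± 0.41 and 0.65 ± 1.22. Magi1, a scaffold of cell junctions, read 0.62 ± 0.31, 3.45 ± 1.04, 3.05 ± 0.51 and 0.57 ± 0.59. On both knockout arrays these 4 lay above 3 but below the range of the upper group of imprinted members, which began at 3.78 on aid-/- and 4.14 on mbd4-/-.

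Gene lists for germ cells, pluripotency, blood, liver and other groups gave few members each. Over all regions, 1.44% were members. Of the members, 74 of 193 were in the top 10% on both knockout ES arrays, a combination not counted over all regions. Of 65 imprinted-list regions 20 were members (30.8%), and of 40 germ cell regions 3 were (7.5%): Boll, Dmc1 and Msh4. Of these Msh4, a meiotic mismatch repair gene, was in the top 10% on both knockout ES arrays at 1.86 ± 0.43 and 1.94 ± 0.51, from 0.45 ± 0.34 on wild type. Boll, an RNA-binding protein of sperm formation, reached it on aid-/- only (2.03 ± 1.70), and Dmc1, the meiotic recombinase, on neither (0.91 ± 0.30 and 0.74 ± 0.13).

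The pluripotency list had 1 member of 20 regions, Esrrb, an orphan nuclear receptor of the ES cell network. Its member region (chr12:87810864-87811528, 5 probes) read −0.06 ± 1.44 on wild type, 2.27 ± 0.55 on aid-/-, 2.01 ± 0.31 on mbd4-/- and 0.39 ± 1.83 on the knock down, with 1.69, 2.94, 1.86 and 3.04 in the tissues. The knockout ES arrays were thus near the tissues, with wide scatter between probes on wild type and the knock down, while the other Esrrb region on the array ranked below 54 on every array and was no member. Of 35 blood and immune regions 3 were members: Cd37, a tetraspanin of B cells, Gata3, a T cell transcription factor, and Zap70, a kinase of T cell receptor signalling. None of them was in the top 10% on an ES array, and their highest ES ranks were 89.6, 80.5 and 89.9. Cd37 and Zap70 ranked from 90.8 to 92.1 on liver and from 92.6 to 96.0 on spleen. Another Cd37 region, which was no member, ranked at 92.6 on wild type, 92.5 on aid-/-, 91.3 on mbd4-/- and 80.6 on the knock down. The liver list (18 regions), the list of methylation enzymes and readers (22) and the histone list (24) had 0 members. Protocadherins had 2 members of 29 regions (6.9%), microRNAs 1 of 26 (3.85%), and the list of ribosomal proteins 1 of 74 (1.35%), which was Rps6ka4, a kinase and no ribosomal protein.

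Of 240 zinc finger (Zfp) regions 8 were members (3.3%), and all 8 ranked at 95 or more on all 4 tissue arrays, as did 37 of the 173 other members in all: Zfp467, Zfp444, Zfp46, Zfp282, Zfpm1, Zfp689, Zfp777 and Zfp319. Of these 6 were in the top 10% on aid-/- and 3 on mbd4-/- ES cells. Zfp282 ranked between 99.6 and 100 in the tissues, at 69.2 on wild type, 91.8 on aid-/-, 88.0 on mbd4-/- and 27.2 on the knock down. Zfpm1, the blood cofactor of GATA factors also called FOG1, had tissue ranks from 98.7 to 99.9 and ES ranks of 73.8, 83.9, 80.9 and 17.7. Hoxb3 was the only member of 68 Hox regions (1.5%), with ES ranks of 54.4, 87.4, 61.9 and 20.4. Of 175 regions of signalling ligands and receptors 7 were members (4.0%), and Wnt5a, a non-canonical Wnt ligand, was the highest of them on aid-/- at 3.11 ± 0.39, from 0.93 ± 0.30. Of 318 developmental transcription factor regions 6 were members (1.9%), of which Foxr1 and Gata6 were in the top 10% on both knockout ES arrays. Of 154 ion channel regions 5 were members (3.2%), Kcnq1 (the Kcnq1ot1 region) among them, and 3 of these were in the top 10% on both.

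In base composition, which the rule did not use, members were close to all regions. Their probes had a median of 56.1% G and C, beside 55.8% over all regions, and 5.15 CpG per 100 bases, beside 5.25. The 935 regions high in tissues and on wild-type ES cells had fewer, 4.07 CpG per 100 bases. Imprinted members were longer, with a median of 968.5 bp and 7.5 probes, against 537 bp and 5 probes for other members, and had 5.63 CpG per 100 bases. Chromosome 8 gave the largest share of its regions (18 of 796, 2.3%) and chromosome 3 the smallest (3 of 601, 0.5%). Pairs of neighbouring members included the Igf2r regions, whose starts lie 27555 bp apart, and Zfp282 with AI894139 and Zfp777 in a zinc finger cluster of chromosome 6.

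The hexamer TGCCGC, or GCGGCA on the other strand, is the sequence bound by ZFP57 when methylated. ZFP57 is a zinc finger protein known to hold methylation at imprinted control regions. Either form was found in 12 of the 166 probes of imprinted members (7.2%), 23 of 947 probes of other members (2.4%) and 2.3% of all 83154 probes in regions. By region, 9 of 20 imprinted members (45.0%), 23 of 173 other members (13.3%) and 12.9% of all regions had it in at least 1 probe, while imprinted members have more probes per region. Bases between probes were not searched. The match is printed in capitals for 5 of these probes, chosen from regions that were high on mbd4-/- ES cells.
Mcts2, chr2:152512595-152512639: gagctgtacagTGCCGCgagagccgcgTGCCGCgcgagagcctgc
Nnat, chr2:157386103-157386147: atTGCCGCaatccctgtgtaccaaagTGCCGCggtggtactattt
Peg3, chr7:6682413-6682457: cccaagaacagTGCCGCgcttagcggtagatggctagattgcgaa
Kcnq1ot1 promoter in Kcnq1, chr7:150481545-150481589: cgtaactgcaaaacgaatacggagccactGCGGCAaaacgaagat
Grb10, chr11:11926108-11926153: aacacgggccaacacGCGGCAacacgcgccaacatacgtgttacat
The Peg3 probe read −2.57 on wild type, 4.47 on aid-/-, 4.56 on mbd4-/- and −1.48 on the Gadd45a knock down. The Mcts2 probe, with 2 matches, read −1.21, 1.81, 4.97 and 2.75. A match describes these letters only and shows no binding. Zrsr1, Peg10, Plagl1 and the Airn region, which had values like those of Peg3, had no match in their probes.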

How the data were processed

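Spot intensity values were deposited as scanner files, 1 per array, from the Feature Extraction software of Agilent, whose release was 10.9.1.1 on 6 arrays and 10.7.3.1 on the mbd4-/- and Gadd45a knock down ES arrays, per the file headers. Input was labelled with Cy3 and bound DNA with Cy5, per the labels. The processed signals are background-subtracted and dye-normalised, per the file headers. The deposited log10 ratio served only to check direction (r = 0.983 or more with the log2 ratio used). The deposited value table is a score with a log base and scale that stay unknown. It runs in the direction of the scanner ratios (r = 0.900 to 0.970), and its medians were −0.21 to −0.03. The steps by which the authors made it are, beyond this, not given in the sources used here.

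Of 94687 spots, 85850 non-control probes on chromosomes 1 to 19 were used. No loess or quantile step was applied. Probes with starts up to 500 bp apart were joined, and 13444 regions with at least 3 probes kept. Names came from the mbd4-/- ES file. Of 9999 distinct names, 8377 were RefSeq symbols and 1477 older synonyms. Members, lists and rules were chosen with earlier results of these data known. The text names every imprinted member, the 10 other members lowest on wild-type ES cells, the 6 highest and 6 lowest by median rank on the 3 other ES arrays, members of the gene lists and the regions nearest to the limits. The rule was run on simulated probes with large built-in differences. That checks the code only and does not show how firm the membership of regions near the limits is. Alternatives were top 5% and 20%, a probe filter, normexp (limma 3.58.1, offset 50, on median signals, as 2 of 8 files hold mean signals), the value table, medians over probes, 5 probes, joining at 300 and 1000 bp, a correction in bins of 5% GC, and the rule without each tissue array. With 1 array per group, their number limits the precision. Analyses used Python 3.11.15 with pandas 2.3.3.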

Additional observations from a re-analysis of the deposited data

How the results depend on the processing

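Across the alternatives 15 of 112 values moved by more than their counting interval or by over 1.5 times. With the top 5% on every array there were 120 members, 1 of them imprinted (Mcts2), so that imprinted shares were 0.0%, 100% and 0.0% on aid-/-, mbd4-/- and Gadd45a knock down ES cells, and other members stood at 37.8% on aid-/- and 21.8% on mbd4-/-. With the top 20%, imprinted members stood at 100% on aid-/- and other members at 15.4% on the knock down. The deposited value table, which leaves 8900 regions, gave 121 members, 7 imprinted, with 0.0% of these on the knock down. With 5 probes or more, imprinted members stood at 93.8% on aid-/- and 93.8% on mbd4-/-, and with probes joined within 300 bp at 0.0% on the knock down. The cause was not tested. The other 97 values moved less. Over all alternatives members numbered 120 to 284. Of the 193 members, 171 (88.6%) were members after the GC correction, 177 (91.7%) after normexp, 79 (40.9%) each with the value table and with 5 probes or more, 88 (45.6%) with the top 20% and 38 (19.7%) with the top 5%. No paired analysis was possible because each group held 1 array. Signal over background and 1 array per group limit the precision, and wild-type ES cells enter every comparison through a single array.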

Other observations

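A larger set of regions was outside the top 10% on the Gadd45a knock down. Of the 1128 regions in the top 10% on all 4 tissue arrays, 512 were outside it on the knock down. The like counts were 193 on wild type, 106 on aid-/- and 120 on mbd4-/- ES cells. Of the 512, 316 were in the top 10% on wild-type, aid-/- and mbd4-/- ES cells. Their ranks on the knock down ran from 0.2 to 89.9, so some, such as Rshl1 and 1600002K03Rik (both 89.9), only just missed the limit. Mbd3 (3 probes), which encodes a methyl-CpG-binding domain protein of the NuRD complex, ranked at 92.3 on wild type, 94.2 on aid-/-, 92.9 on mbd4-/- and 0.2 on the knock down, with log2 values of 1.38, 3.14, 2.68 and −2.29. Ston2 (7 probes), an endocytosis adaptor, ranked at 98.9, 98.1, 99.2 and 3.3, with log2 values of 3.74, 4.39, 4.81 and −1.44. Hyal2 (3 probes), a hyaluronidase, ranked at 95.9, 99.4, 98.0 and 4.0. These genes, from the low end of that range, were named after their values were seen. The knock down array also had the widest scatter over probes of the 4 ES arrays in the members of the set above (median SD 1.21), and the part of that scatter in these ranks was not tested.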
